A study of Homo sapiens with 4 samples.

Results

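NF-κB is a family of dimeric transcription factors that is held in the cytoplasm by inhibitory IκB proteins until the IKK kinase complex marks these inhibitors for degradation. The released dimers enter the nucleus and switch on, among other targets, the genes of their own subunits and inhibitors, so that the pathway limits itself through negative feedback. In breast cancer cells the canonical arm signals through p65 and p50 dimers, and the non-canonical arm through RelB and p52. Transcript levels of these genes are commonly read as a trace of pathway output, although activation itself takes place at the protein level, which arrays do not measure.

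The 10 genes described here are the subunits NFKB1, NFKB2, REL and RELB, the inhibitors NFKBIA, NFKBIB, NFKBIE, NFKBIZ and BCL3, and the feedback enzyme gene TNFAIP3. They were found through the RefSeq accession that each probe carries, and 9 of the 10, with 10 probes, were found among the 16419 genes named by a probe. NFKB2 and the p65 gene had no probe matched in this way and are not analysed here. All 9 genes found had a probe with a signal of at least 100 on at least 1 array, the condition that 25927 of 41000 probes met, and these are called kept probes below. TNFAIP3 had a second, dimmer probe that did not meet it.

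Total RNA was profiled on 4 Agilent arrays, 1 for each of parental SkBr3, parental BT474 and a lapatinib-resistant clone of each, SkBr3/Lap and BT474/Lap. SkBr3 and BT474 are established HER2-positive breast cancer cell lines, grown in DMEM/F12, and lapatinib inhibits the EGFR and HER2 tyrosine kinases. The parental cells carry the treatment label vehicle, and each clone came from raising lapatinib stepwise to 1 μM. Each resistant group is thus 1 clone. The labels number the clones 3 for SkBr3 and 6 for BT474, whereas the study's figures and text use these numbers the other way round. For the study's protein blots both clones were kept in 1 μM lapatinib. The paper does not say whether the drug was present when RNA for the arrays was taken. Presence of the drug and resistance therefore cannot be told apart in the changes below. With 1 array per group there are no replicates and no test between a clone and its parental cells. The number of arrays limits the precision, so changes of at least 2-fold were counted and set beside the share of all kept probes that passed the same limit. In bulk RNA, fewer cells that use a gene and less of its RNA per cell cannot be told apart.

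The 75th percentile of the signals, which was subtracted on the log2 scale, was 1115 in parental SkBr3, 2074 in SkBr3/Lap, 1158 in parental BT474 and 1681 in BT474/Lap. Between 66.6% and 74.0% of the probes were well above background. The SkBr3/Lap array lay on a slide of its own and the other 3 shared a slide, so slide and resistance cannot be told apart in the SkBr3 pair, while the BT474 pair lies within 1 slide. Of the 7 breast epithelial markers, 6 were well above background in both SkBr3 samples and 7 in both BT474 samples, CDH1 being the one not well above background in SkBr3. The leukocyte marker PTPRC was not well above background on any array.

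The κB site is the DNA element that NF-κB dimers bind, and the stretches below show where its 10-base consensus occurs upstream of these genes. It was searched on both strands of RefSeq promoter windows (GRCh38.p14), which run from 250 bases before to 50 bases after each annotated transcription start. Of the 10 genes, 8 had 13 such windows in all, and RELB and NFKBIE had none. All 8 genes held a match in at least 1 window, and 10 of the 13 windows held one, whereas 5.91% of 35116 windows of all genes and 7.09% of 27305 genes did. Among genes with a single window the shares were 4 of 4 for these genes and 5.57% of 22114 overall. A match is a description of letters, not of binding. The stretches are shown for 6 of the genes whose array values follow, on the strand of the gene, with the bases of the match in capitals. Those of NFKBIB and of the second NFKBIZ start are left out, since both lie at the later of 2 starts.
NFKBIA, chr14:35404801-35404850, minus strand: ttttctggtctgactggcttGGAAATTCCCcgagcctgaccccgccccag
TNFAIP3, chr6:137867172-137867233, plus strand: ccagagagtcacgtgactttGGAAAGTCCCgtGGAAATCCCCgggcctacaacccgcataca
NFKBIZ, chr3:101827747-101827796, plus strand: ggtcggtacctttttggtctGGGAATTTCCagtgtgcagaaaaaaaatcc
NFKB1, chr4:102501290-102501339, plus strand: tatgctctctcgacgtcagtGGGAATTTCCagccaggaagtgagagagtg
REL, chr2:60881507-60881557, plus strand: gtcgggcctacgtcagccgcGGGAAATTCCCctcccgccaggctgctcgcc
BCL3, chr19:44748700-44748729, plus strand: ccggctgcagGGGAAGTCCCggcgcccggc
NFKBIZ, at the first of its 2 starts, and NFKB1, at the first of its 2, hold the same 10 bases, at -223 to -214 and at -49 to -40 from the start. Read on the opposite strand, the matches of NFKBIA and REL hold these 10 bases as well. The TNFAIP3 window holds 2 matches, at -67 to -58 and at -55 to -46, separated by 2 bases. The NFKBIA match lies at -81 to -72, and in REL 2 matches overlap by all but 1 base, the first of them at -47. In BCL3 the match begins at base 3 after the start rather than before it.

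**Figure D1:**
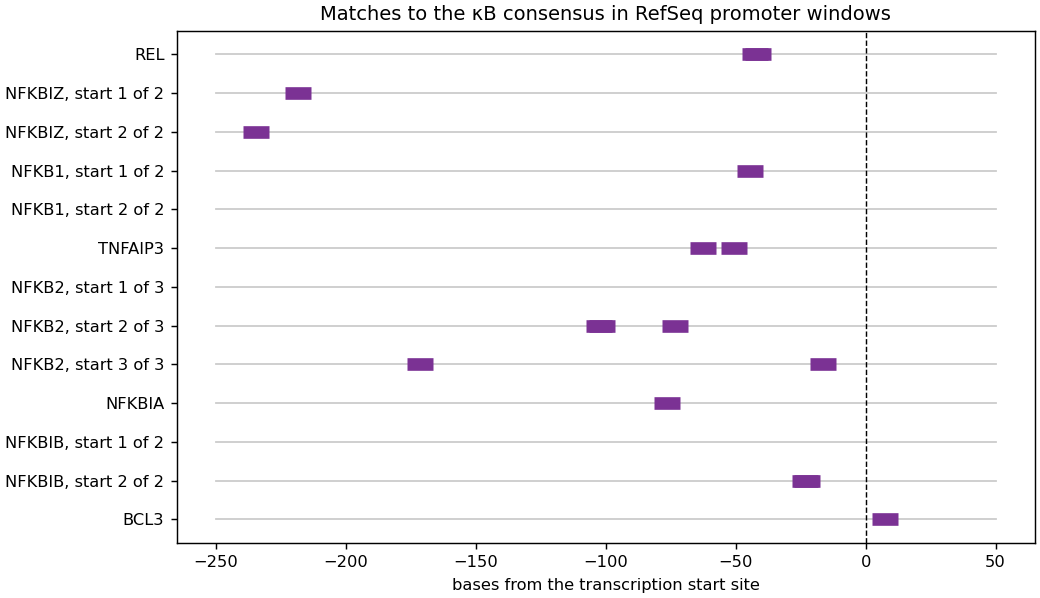
Position of each match to the κB consensus, in bases from the annotated transcription start (dashed line), with 1 row for each of the 13 promoter windows (grey lines) of 8 genes. Matches (purple) are seen in 10 windows, before the start in all of them except that of BCL3, and the windows of the second NFKB1 start, the first NFKB2 start and the first NFKBIB start hold none.

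In SkBr3/Lap, 5 of the 9 measured genes were at least 2-fold higher than in parental SkBr3 and 0 were at least 2-fold lower. They were RELB, NFKBIA, NFKBIE, NFKBIZ and TNFAIP3, that is, 1 subunit and 4 of the 6 inhibitor and feedback genes. TNFAIP3 reached the signal limit of 100 in SkBr3/Lap only, the sample where it was high. Over probes well above background on all 4 arrays 4 genes were higher, and without the signal limit 5. Among all kept probes with a value, 12.7% were at least 2-fold higher in this clone and 14.6% at least 2-fold lower. The median log2 change was 1.09 over the 9 genes and -0.09 over all kept probes. In BT474/Lap, 1 of the 8 genes with a value, REL, was at least 2-fold higher and 0 were lower, against 9.95% and 5.01% of all kept probes, and a single gene of 8 is a share close to this background. The median over the 8 genes was -0.21, beside -0.04 over all kept probes. Of all the kept probes called in BT474/Lap, 66.5% were higher with the 75th percentile and 47.3% with the median as the scaling value. In SkBr3/Lap these shares were 46.6% and 56.7%.

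**Figure D2:**
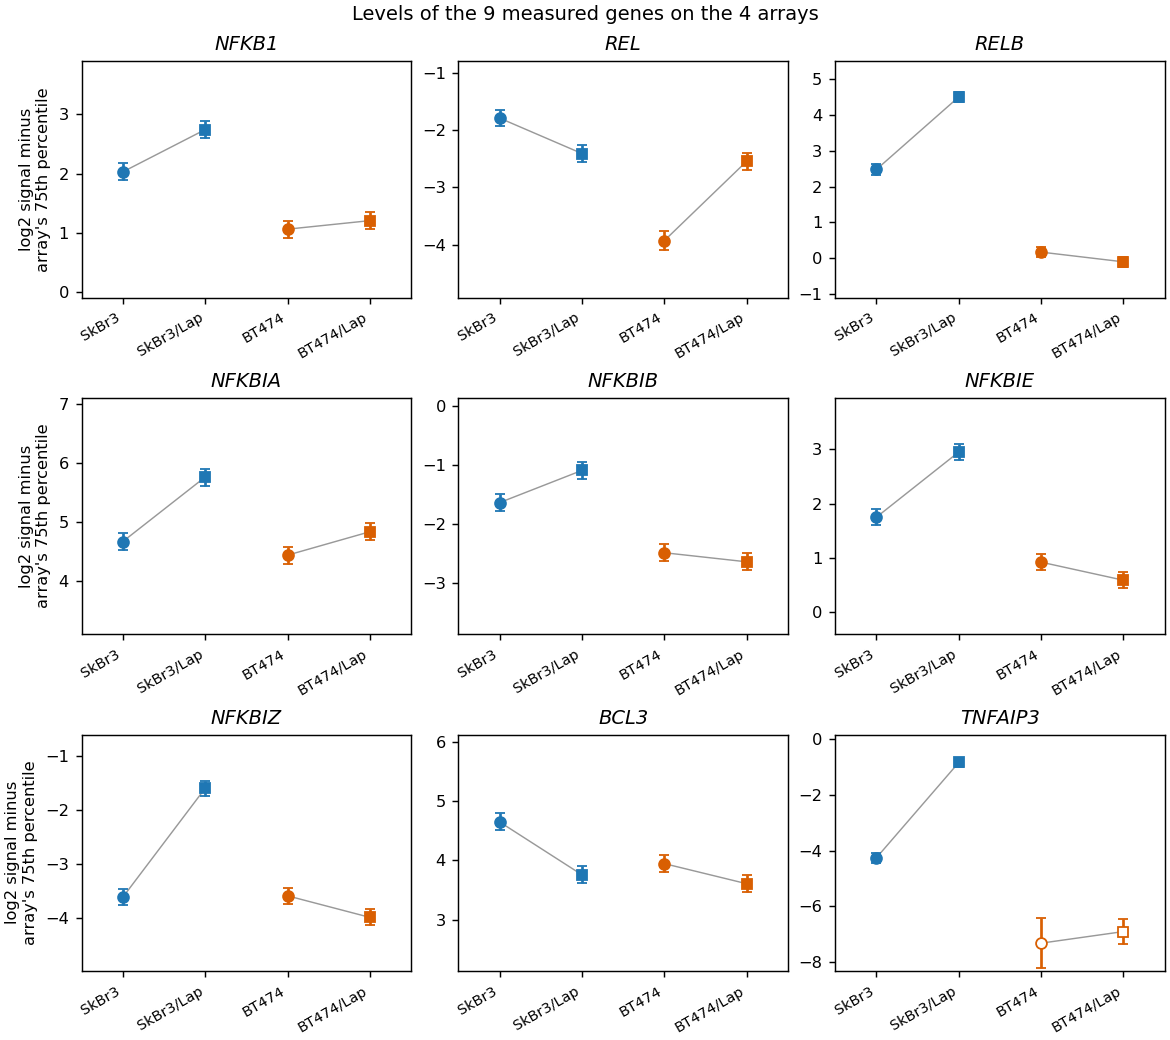
Level of each of the 9 measured genes on the 4 arrays, as the log2 signal minus the array's 75th percentile, with the error bars of the scanner software's technical error. Each panel has its own axis range, circles are parental cells, squares resistant clones and open symbols signals not well above background, and grey lines join a clone to its parental cells. RELB, NFKBIA, NFKBIE, NFKBIZ and TNFAIP3 stand higher in SkBr3/Lap than on the other 3 arrays, while REL stands higher in BT474/Lap than in BT474 only.

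Of the subunits, RELB, the partner of p52 in the non-canonical arm, changed most between SkBr3 and its clone. Its signal was 6209 in parental SkBr3, 46931 in SkBr3/Lap, 1306 in parental BT474 and 1570 in BT474/Lap, and its log2 levels after scaling were 2.48, 4.50, 0.17 and -0.10 in the same order. SkBr3/Lap stands above the other 3 arrays, and both BT474 samples below both SkBr3 samples. RELB was 4.06-fold higher in SkBr3/Lap than in SkBr3, a log2 change of 2.02 ± 0.20. The error joins the technical errors that the scanner software assigns to the 2 arrays, and it leaves out the spread between cultures. For the brighter genes of the set it was nearly the same on every array, at 0.14, so it is not a spread measured from these arrays. A change higher than that of RELB was found for 5.12% of all kept probes. In BT474/Lap the log2 change of RELB was -0.27 ± 0.20, not far from the technical error.

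REL, the gene of c-Rel, a subunit best known from lymphocytes, changed in the opposite direction to RELB within each pair. Its signal was 324 in parental SkBr3, 392 in SkBr3/Lap, 75.9 in parental BT474 and 289 in BT474/Lap, and the scaled log2 levels were -1.78, -2.40, -3.93 and -2.54. Parental BT474 stands well below the other 3 arrays, and the 2 clones are 0.14 apart, which is less than the technical error. The change was 2.62-fold in BT474/Lap (log2 1.39 ± 0.22), and 5.80% of kept probes had a higher one. In SkBr3/Lap REL was 1.54-fold lower, at a log2 change of -0.62 ± 0.20. With normexp background correction and quantile normalization the change in BT474/Lap was 0.82 on the log2 scale, under 2-fold.

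NFKB1, which encodes the p105 precursor of p50, is the one gene of the set spotted 10 times on each array. Its mean signal was 4547 in parental SkBr3, 13881 in SkBr3/Lap, 2414 in parental BT474 and 3871 in BT474/Lap, with an SD over the 10 spots of 0.06 to 0.07 on the log2 scale. The scaled log2 levels were 2.03, 2.74, 1.06 and 1.20, highest in SkBr3/Lap. The difference of 1.64-fold in SkBr3/Lap (log2 0.71 ± 0.20) is larger than the spread between spots but below 2-fold, and 18.1% of kept probes had a higher change. In BT474/Lap the log2 change of 0.14 ± 0.20 lay within the technical error and turned to -0.06 with scaling by the median.

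The inhibitors are described next, beginning with NFKBIA, which encodes IκBα, the inhibitor that is degraded and made again in each round of canonical signalling. Its signal was 28368 in parental SkBr3, 112350 in SkBr3/Lap, 25125 in parental BT474 and 47972 in BT474/Lap, and the scaled log2 levels were 4.67, 5.76, 4.44 and 4.83. The 2 parental lines were 0.23 apart on the log2 scale and both clones stood above their parental cells. NFKBIA was 2.13-fold higher in SkBr3/Lap (log2 1.09 ± 0.20), a change exceeded by 11.5% of kept probes. In BT474/Lap it was 1.32-fold higher (log2 0.40 ± 0.20), exceeded by 25.6%. It was the one gene of the 9 whose log2 change was positive in both clones in every alternative tried.

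A small part of the other probes had a pattern like that of NFKBIA. The 4 levels of each of 16393 named probes that passed the background limit on every array were centred on their mean. Of these probes, 350, from 317 genes, lay within a Euclidean distance of 0.5 of NFKBIA on the log2 scale. Among the nearest were ZBED1 at 0.03 and MCM5 at 0.07, over 4 arrays. Their log2 changes were 1.12 and 1.06 in SkBr3/Lap, beside 0.36 and 0.49 in BT474/Lap.

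NFKBIE encodes IκBε, another cytoplasmic inhibitor, whose transcript is induced by NF-κB with a delay. Its signal was 3750 in parental SkBr3, 16061 in SkBr3/Lap, 2193 in parental BT474 and 2525 in BT474/Lap, with scaled log2 levels of 1.75, 2.95, 0.92 and 0.59. It was 2.30-fold higher in SkBr3/Lap (log2 1.20 ± 0.20), and the alternatives ran from 1.00 to 1.36. In BT474/Lap the log2 change was -0.33 ± 0.20. NFKBIB, the gene of IκBβ, which is not a typical feedback gene, had signals of 359, 973, 207 and 270 and scaled log2 levels of -1.64, -1.09, -2.48 and -2.64. Both of its log2 changes were under 2-fold, at 0.54 ± 0.20 in the SkBr3 pair and -0.15 ± 0.21 in the BT474 pair, and the second lay within the technical error.

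The other 2 members of the IκB family act in the nucleus and had changes of opposite sign in SkBr3/Lap. NFKBIZ encodes IκBζ, an inducible co-regulator of secondary response genes such as IL6. Its signal was 90.7 in parental SkBr3, 687 in SkBr3/Lap, 95.9 in parental BT474 and 105 in BT474/Lap, and its scaled log2 levels were -3.62, -1.59, -3.59 and -3.99. The parental lines differed by 0.03 on the log2 scale, less than the technical error, and SkBr3/Lap stood apart from all 3 other arrays. The difference was 4.07-fold in SkBr3/Lap (log2 2.03 ± 0.21), against a log2 change of -0.40 ± 0.21 in BT474/Lap.

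BCL3, a nuclear IκB protein that binds p50 and p52 dimers, had signals of 28003 in parental SkBr3, 28043 in SkBr3/Lap, 17857 in parental BT474 and 20476 in BT474/Lap. Its scaled log2 levels were 4.65, 3.76, 3.95 and 3.61. The near-equal signals of the SkBr3 pair become a log2 change of -0.89 ± 0.20 because the whole SkBr3/Lap array was brighter. BCL3 was the one gene of the set lower in both clones in every alternative, by 1.86-fold in SkBr3/Lap and by 1.27-fold in BT474/Lap (log2 -0.34 ± 0.20), neither of which reached 2-fold.

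TNFAIP3 encodes A20, a ubiquitin-editing enzyme that shuts off signalling upstream of IKK. Its main probe had signals of 58.2 in parental SkBr3, 1150 in SkBr3/Lap, 7.29 in parental BT474 and 14.1 in BT474/Lap. The last 2 were not well above background, so no change is given for the BT474 pair. In SkBr3/Lap it was 10.6-fold higher (log2 3.41 ± 0.23), the highest change among the 9 genes on every setting tried, and 1.93% of kept probes had a higher one. The alternatives ran from 2.63 to 3.57 on the log2 scale, the lowest with normexp background correction and quantile normalization. The second probe was well above background in SkBr3/Lap only, at a signal of 83.0, and was at least 2.79-fold higher there than in SkBr3.

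**Figure D3:**
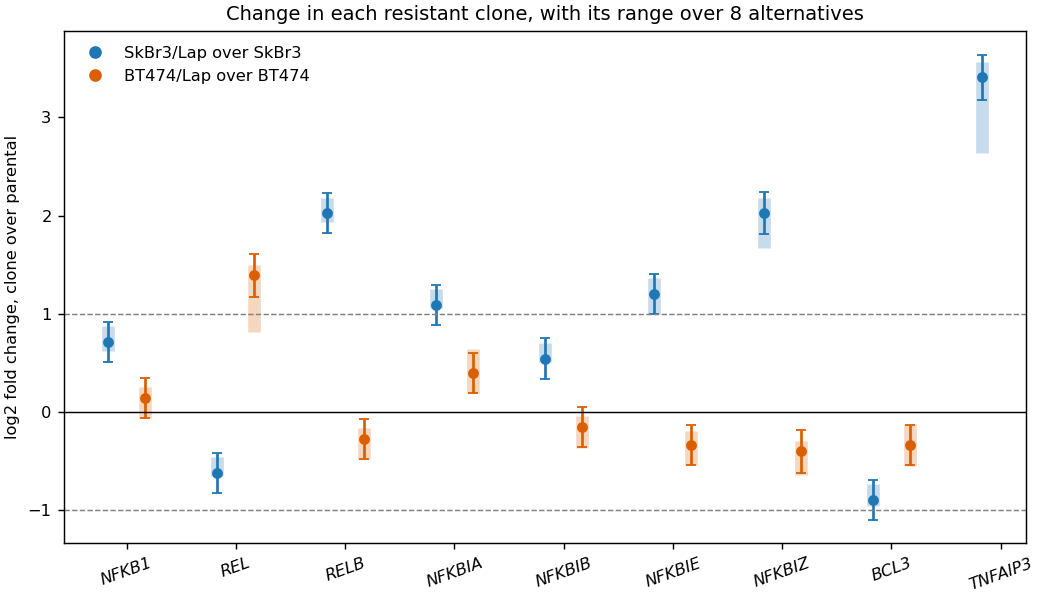
The log2 fold change of each measured gene in SkBr3/Lap (blue) and BT474/Lap (orange) over its parental cells, with bars for the technical error and pale bands for the range over 8 alternatives. Dashed lines mark 2-fold. RELB, NFKBIA, NFKBIE, NFKBIZ and TNFAIP3 lie above the upper line in SkBr3/Lap with their whole bands, REL lies above it in BT474/Lap with part of its band, and TNFAIP3 has no BT474 value.

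**Figure D4:**
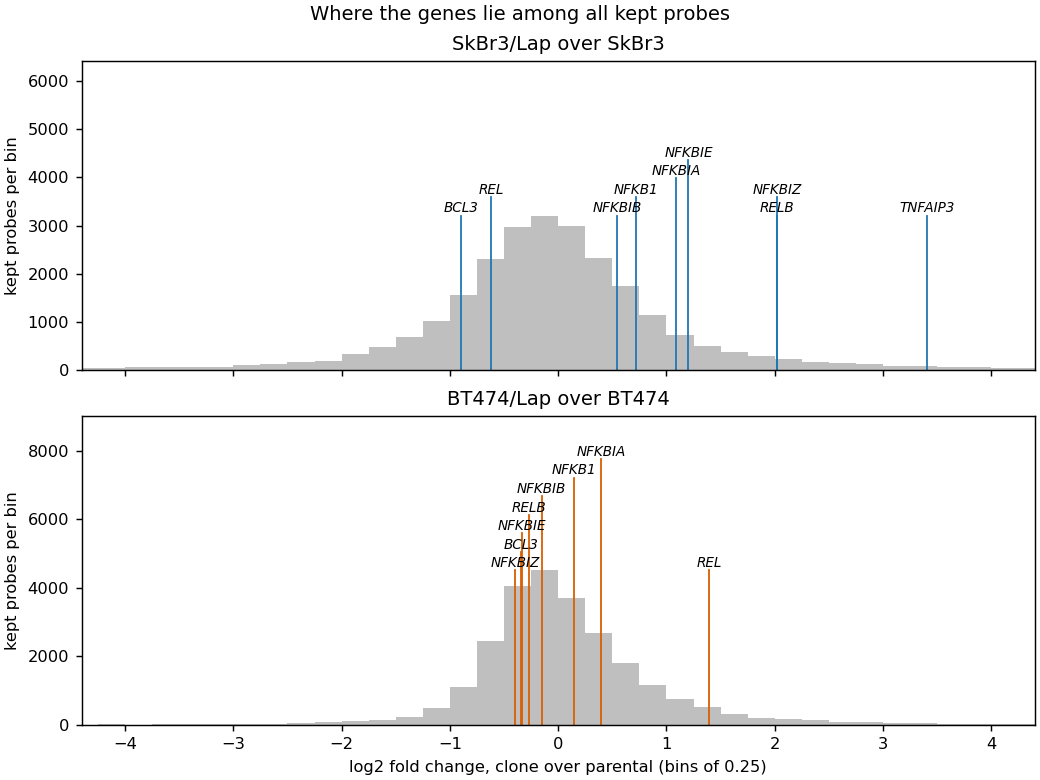
Number of kept probes by log2 fold change in bins of 0.25 (grey), for SkBr3/Lap (top) and BT474/Lap (bottom), with the measured genes marked by lines, and the tails beyond the ends of the axis not drawn. In SkBr3/Lap the lines run from BCL3 at -0.89 to TNFAIP3 at 3.41, and in BT474/Lap all but REL at 1.39 lie within 0.5 of 0.

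Of the 5 genes called in SkBr3/Lap, 4 had a change in both clones, and these changes differed by 0.69 (NFKBIA), 1.54 (NFKBIE), 2.29 (RELB) and 2.43 (NFKBIZ) on the log2 scale, while TNFAIP3 has no value in BT474/Lap. The differences are given without a test. Of the 8 genes with a value in both clones, 4 (RELB, NFKBIE, NFKBIZ and REL) passed 2-fold in one and had the opposite sign in the other, as did 18.4% of kept probes. The fit across both cell lines, limma with cell line as a block and 1 residual degree of freedom, asks for a change shared by both clones. It gave 0 probes of 25927 at an adjusted p under 0.05 and 3.47% at an unadjusted p under 0.05. By limma, 0 of these genes had an unadjusted p under 0.05. Among the 8 genes well above background on all 4 arrays the smallest was that of NFKBIA, with a limma effect of 0.74 ± 0.45 (SE) on the log2 scale and an adjusted p of 1.00.

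The parental lines already differed in several of these genes. The subunits RELB and REL were 4.94-fold and 4.44-fold higher in SkBr3 than in BT474, and TNFAIP3 was at least 3.79-fold higher. NFKB1 was 1.96-fold higher. Of the 9 genes 8 were higher in SkBr3 and 3 at least 2-fold so, beside 51.5% and 19.4% of all kept probes. The ninth, NFKBIZ, had a log2 difference of -0.03 ± 0.22, so that 0 genes were at least 2-fold lower, beside 19.2% of kept probes. These comparisons use the same parental arrays as the changes above and are not independent of them. Between the clones RELB was 24.2-fold higher in SkBr3/Lap than in BT474/Lap, NFKBIZ 5.28-fold, NFKBIE 5.15-fold and TNFAIP3 at least 63.6-fold, while REL and BCL3 were higher there by 0.14 and 0.15 on the log2 scale, within the technical error.

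Of the IKK complex and its activating kinases, 15 of 16 listed genes were measured, and 3 were at least 2-fold higher and 1 lower in SkBr3/Lap, beside 12.7% and 14.6% of all kept probes. In BT474/Lap 1 was higher and 0 lower, beside 9.95% and 5.01%, and the medians were -0.02 and 0.08 on the log2 scale, close to those of all kept probes. The gene higher in both was MAP3K14, which encodes NIK, the kinase that starts the non-canonical arm. Its signal was 610 in parental SkBr3, 5905 in SkBr3/Lap, 401 in parental BT474 and 1639 in BT474/Lap. Both clones stood above both parental lines, by 5.20-fold in the SkBr3 pair (log2 2.38 ± 0.20) and 2.81-fold in the BT474 pair (log2 1.49 ± 0.20). Among all kept probes with a value in both pairs, 2.20% passed the same limit upwards in both.

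Of 22 receptors and adaptors upstream of IKK, 17 were measured in SkBr3/Lap, where 2 were at least 2-fold higher and 2 lower. In BT474/Lap 1 of 16 was higher and 1 lower, and in both clones these shares are near those of all kept probes just given. IL1RAP, the accessory chain of the IL-1 receptor, had signals of 293, 2534, 87.1 and 511 in SkBr3, SkBr3/Lap, BT474 and BT474/Lap, and was 4.65-fold and 4.04-fold higher in the clones. Its probes disagree, since a probe for another transcript of the gene changed by 0.02 and 0.15 on the log2 scale. The remaining kept probes of IL1RAP rose by at least 2.81 and 2.10 on the log2 scale in SkBr3/Lap. In BT474/Lap the former rose by at least 0.68 and the latter had no value. The ligand-binding chain gene IL1R1 had signals of 582, 636, 192 and 96.5 and was 2.89-fold lower in BT474/Lap. CD40, a TNF receptor family member that feeds the non-canonical arm, fell from 119 to 59.1 in signal, 3.76-fold after scaling, in SkBr3/Lap, and was not well above background in either BT474 sample.

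Among 22 ubiquitin enzymes and other negative regulators, 19 were measured in both pairs. In SkBr3/Lap 3 were at least 2-fold higher and 0 lower, and in BT474/Lap 1 was higher and 2 lower, with medians of -0.10 and -0.03 on the log2 scale. The 15.8% higher in SkBr3/Lap stand beside 12.7% of all kept probes, and the 5.26% higher in BT474/Lap beside 9.95%. For lower levels, 0% and 10.5% stand beside 14.6% and 5.01%, in the same order. NLRC5, a cytoplasmic NOD-like receptor also known as an activator of MHC class I genes, had signals of 38.0, 286, 48.6 and 27.3 in the order SkBr3, SkBr3/Lap, BT474 and BT474/Lap. Its level was 4.05-fold up in SkBr3/Lap, whereas in BT474/Lap it was 2.58-fold down. Its 2 other probes, below a signal of 100 on all arrays, do not show the lower level in BT474/Lap. Their signals in the BT474 pair were 8.58 and 23.4 for one, and 5.01 and 13.0, neither well above background, for the other.

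Of 32 classical NF-κB targets, 20 were measured in SkBr3/Lap, of which 10 were at least 2-fold higher and 1 was lower. In BT474/Lap 4 of 17 were higher and 0 lower. Of all kept probes, 12.7% and 9.95% were higher and 14.6% and 5.01% lower. The target counts depend on the signal limit of 100, which ICAM1, IL6, CCL5 and LTB reached in SkBr3/Lap only. It left out SELE and CXCL1, with log2 changes in SkBr3/Lap of -3.10 and -2.69 or lower. CXCL8, IL1B and CCL20 were also left out, with log2 changes there of at least 1.29, 1.23 and 1.03. Over targets well above background on all 4 arrays 6 were higher in SkBr3/Lap, with a median log2 change of 0.58, and with normexp and quantile normalization 2 were higher in BT474/Lap. The medians of all measured targets were 0.97 and 0.18 on the log2 scale, or 0.84 over 18 genes and 0.17 over 15 without those known only as limits, and the median in BT474/Lap turned to -0.02 with scaling by the median. BIRC3, which encodes the ubiquitin ligase cIAP2, had signals of 68.5 in parental SkBr3, 2396 in SkBr3/Lap, 97.0 in parental BT474 and 580 in BT474/Lap. Both clones stood above both parental lines, and the differences were 18.8-fold (log2 4.23 ± 0.22) and 4.12-fold (log2 2.04 ± 0.21). CD83, an activation marker of dendritic cells, went from 83.7 to 3393 and from 150 to 471 in signal, which is 21.8-fold and 2.16-fold after scaling.

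Among the other targets, the adhesion molecule gene ICAM1 was 31.9-fold higher in SkBr3/Lap, with signals of 46.8 and 2781, and was not well above background in either BT474 sample. The same held for the cytokine gene IL6, which was below that limit in SkBr3 as well and was at least 56.9-fold higher in SkBr3/Lap, at a signal of 1695. By its brighter probe TRAF1, a signalling adaptor and NF-κB target, differed 2.10-fold between SkBr3/Lap and SkBr3 and 1.02-fold in the BT474 pair, whereas its other probe gave log2 changes of at least 1.53 and of 1.05. PLAU, the gene of urokinase, ran against the list, with signals of 913, 52.2, 61.2 and 176 and a 32.5-fold lower level in SkBr3/Lap. It was 1.98-fold higher in BT474/Lap. Named after their values were seen, since the ranking left out changes known only as limits, are the chemokine gene CCL5, at least 157-fold higher in SkBr3/Lap, and the RANK receptor gene TNFRSF11A of the receptor list, at least 13.0-fold lower.

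**Figure D5:**
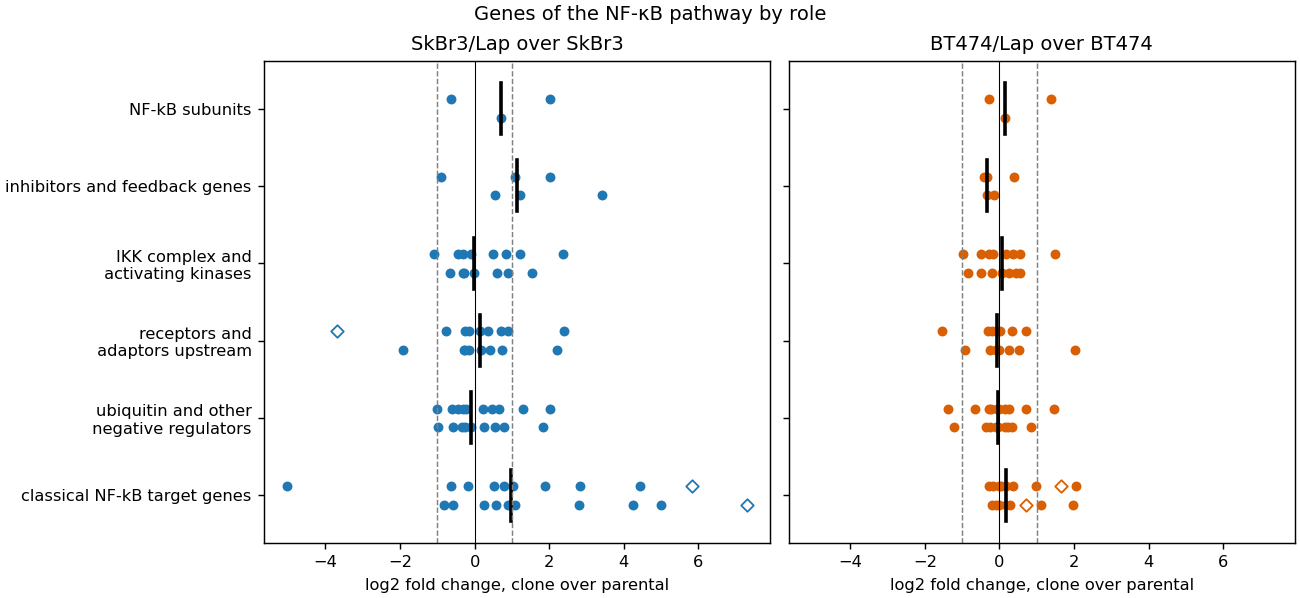
The log2 fold change of each measured gene of the 6 pathway lists in SkBr3/Lap (left) and BT474/Lap (right), 1 point per gene, with the median of each list as a black bar and open diamonds for changes known only as limits. Dashed lines mark 2-fold. In SkBr3/Lap the targets and the inhibitor and feedback genes lie furthest to the right, with medians of 0.97 and 1.15, and the medians of the kinases, receptors and negative regulators lie between -0.10 and 0.16.

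Markers of other cell types also moved in the SkBr3 pair. Of 3 fibroblast markers with a probe, 2 (COL3A1 and PDGFRB) were well above background in SkBr3/Lap and 0 on the other arrays. Their summed level, as multiples of the array's 75th percentile, was 0.0109 in parental SkBr3, 0.202 in SkBr3/Lap, 0.0106 in parental BT474 and 0.00679 in BT474/Lap. The 3 endothelial markers summed to 0.162, 0.673, 0.781 and 0.391, and the 5 leukocyte markers to 0.497, 0.241, 0.176 and 0.136. The 7 breast epithelial markers summed to 818, 488, 763 and 512, lower in both clones. Before scaling, their summed signals were 911788, 1012060, 883731 and 859891. The part of these differences in the changes described above was not tested.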

How the data were processed

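The values deposited per spot are background-subtracted intensities from Feature Extraction, version 10.1.1.1 and 1 channel per the file headers, whereas the methods name an earlier version and LOWESS normalization. A log2 table that the authors deposited served as an alternative, although for most probes its changes were nearly the same as in the main setting. Log2 signals were averaged over the spots of a probe and put relative to the 75th percentile of the 41000 probes on that array. A probe was well above background when the software marked 50% or more of its spots. Where 1 signal of a pair was not, it was raised to at least the lowest such signal on that array and the change is a limit; where neither was, no change is given. Each gene was read from the brightest of its kept probes. Probes were named through RefSeq accessions (23675 of 41000), without coordinates, since the array design uses another genome build. The genes, lists and rules were chosen with earlier results of these data known: from the lists, the genes named were those at least 2-fold changed the same way in both clones, the 2 largest rises and falls in each clone among probes well above background on both arrays of the pair, and ICAM1, IL6, BIRC3 and TRAF1. The test was limma 3.58.1 in R 4.3.3 with Benjamini-Hochberg adjustment over 25927 probes, and its script was tested on simulated data. Alternatives were the percentile over probes well above background, the median, quantile normalization, normexp (offset 50) with quantile normalization, the deposited table, 16 added to the signal, outlier spots left out, the mean over probes, other filters, a 3-fold limit, and limma without a block, with slide as the block or without the filter. Python 3.11.15 did the rest. An item that these rules cover is not reported here.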

Additional observations from a re-analysis of the deposited data

Results flagged for a closer look

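Of the 8 genes with a value in both clones, 4 passed 2-fold in one clone and had the opposite sign in the other, with 1 array on each side. Of all kept probes with a value in both, 18.4% did so. The log2 change of RELB was 2.02 in SkBr3/Lap and -0.27 in BT474/Lap. NFKBIE changed by 1.20 and -0.33, and NFKBIZ by 2.03 and -0.40, in the same order. REL ran the other way, at -0.62 in SkBr3/Lap and 1.39 in BT474/Lap. These differences between the clones were not tested, since there is 1 clone of each line.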

How the results depend on the processing

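Each of the 17 gene changes kept its sign in the 8 alternatives, except that of NFKB1 in BT474/Lap, at -0.06 with the median as the scaling value. Of the 136 values, 121 lay within the technical error of the main value, an error that was nearly the same for all the brighter genes. Some alternatives could hardly differ, since the deposited table gave nearly the main change (for RELB in SkBr3/Lap 2.0234, beside 2.0227). Leaving out outlier spots gave 2.0228 there, and the mean over probes gave the main value. Agreement in these alternatives therefore carries little weight. The 5 genes at least 2-fold higher in SkBr3/Lap were so in all 8 alternatives, and with a 3-fold limit 3 were left. Over probes well above background on all 4 arrays 4 were higher, without TNFAIP3. REL was no longer called in BT474/Lap, leaving 0 genes higher, with normexp and quantile normalization or with a 3-fold limit. With the median as the scaling value the median of all kept probes was 0.07 in place of -0.09 for SkBr3/Lap and -0.25 in place of -0.04 for BT474/Lap, and the median over the genes in BT474/Lap was -0.42. Counts over all kept probes moved by over 1.5 times in SkBr3/Lap with a 3-fold limit (1836 higher, 1730 lower) and normexp (2307 lower), and in BT474/Lap with a 3-fold limit (1127 higher, 478 lower), normexp (1463 higher) and the median (2080 lower). Over all the pathway lists, 4 genes were lower in SkBr3/Lap, and 2 with normexp or with probes well above background on all 4 arrays. In BT474/Lap 3 were lower, and 6 with the median. The number of probes at an unadjusted limma p under 0.05 was 900, and 308 without a block, 457 with slide as the block and 2043 without the filter, with 0 at an adjusted p under 0.05 each time. The cause was not tested. The mean over probes changed nothing for the 9 genes, as each had 1 kept probe. No paired analysis was possible because each group holds 1 array, all with the same replicate number, so that a replicate block has 1 level; the limma fit is blocked by cell line instead. The signal over background limits TNFAIP3 in BT474, and a change in 1 culture cannot be told from one in the clone.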
